A study of Mus musculus with 12 samples.

Results

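Transcripts of 10 amino acid transporter genes were followed in the tibialis anterior of mice, a shin muscle made mainly of fast-twitch fibres. The genes, Slc7a5, Slc3a2, Slc7a8, Slc7a1, Slc7a2, Slc1a5, Slc38a2, Slc38a3, Slc38a4 and Slc38a10, were chosen by name, and all 10 were listed in each of the 3 deposited tables, among 13865 genes listed in any of them. RNA sequencing covered 12 libraries in 3 groups of 4, all from C57BL/6J mice. KPC_UA muscle came from tumour-bearing mice whose chow was supplemented with ursolic acid, a triterpenoid of fruit peel. KPC muscle came from tumour-bearing mice on standard chow. Sham muscle was that of mice without tumours, also on standard chow. The tumours were grown from KPC cells, mouse pancreatic cancer cells placed in the surgically exposed pancreas. Age, sex, and the dose and length of the ursolic acid diet are not stated in the labels used. Whether every sample is a mouse of its own is not stated in the labels, and the p-values therefore reflect the spread among these samples, which may in part be technical.

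Muscle fibres take up amino acids through carriers that differ in their substrates and in what drives them. The system L exchangers pair a light chain, LAT1 (Slc7a5) or LAT2 (Slc7a8), with the heavy chain 4F2hc (Slc3a2) and bring in leucine and other large neutral amino acids against an amino acid leaving the cell. The CAT proteins (Slc7a1, Slc7a2) carry arginine and lysine. ASCT2 (Slc1a5) exchanges small neutral amino acids with sodium, and the SNAT proteins (Slc38a2, Slc38a3, Slc38a4) take up glutamine, alanine and other neutral amino acids with sodium. Slc38a10 belongs to the same family by sequence. In muscle these carriers are studied for leucine supply to mTORC1 and for the release of glutamine and alanine during wasting.

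Each library held 22.3 to 32.0 M reads in the listed genes. Fast fibre transcripts were present at high level throughout, with 8 of 8 markers (Acta1, Ckm, Myh4 and others) listed and a sum between 4080639 and 5162257 normalised reads in every library. KPC replicates 1 and 4 stood apart from the other libraries: a first principal component over 13540 genes carried 53.7% of the variance, and on it they lay at 124 and 53.5, whereas KPC replicate 3 lay at 13.5 and KPC replicate 2 at -8.56. The KPC_UA libraries lay between -25.7 and -0.59 and the Sham libraries between -34.6 and -28.0. KPC replicate 1 had the highest or lowest of the 12 values for 60.6% of all genes, and for 9 of the 10 transporters (highest for 7, lowest for 2). The log2 fold changes that KPC replicate 1, or both of these libraries, moved most are therefore also given without them. Because the tissue was sequenced in bulk, fewer cells of a type and less RNA per cell cannot be told apart.

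Levels are given here as normalised reads, the reads of a gene divided by a size factor per library that was set over all 12 libraries together. Only a comparison between genes needs a length, and per kb of exon a SNAT gene had the highest mean in KPC_UA and Sham muscle and Slc7a2 in KPC muscle. In KPC_UA muscle Slc38a3 came first at 636 ± 98.1 normalised reads per kb (mean ± SD, n = 4, as for the other levels of this paragraph), before Slc38a4 at 491 ± 79.2 and Slc38a2 at 298 ± 47.7. In KPC muscle Slc7a2 had the highest mean, 799 ± 578, followed by Slc38a4 at 639 ± 448 and Slc38a2 at 413 ± 142, and these ranges overlapped. In Sham muscle Slc38a4 came first at 663 ± 118 and Slc38a3 next at 604 ± 39.1, again with overlapping ranges, and Slc7a2 stood at 191 ± 47.2. Slc7a1 was last and Slc7a5 ninth in all 3 groups. Slc7a5 stood at 11.1 ± 2.59 in KPC_UA, 25.3 ± 25.7 in KPC and 6.89 ± 0.97 in Sham muscle, so LAT2 (Slc7a8) was the more abundant light chain in every library, by at least 5.28 times per kb.

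**Figure D1:**
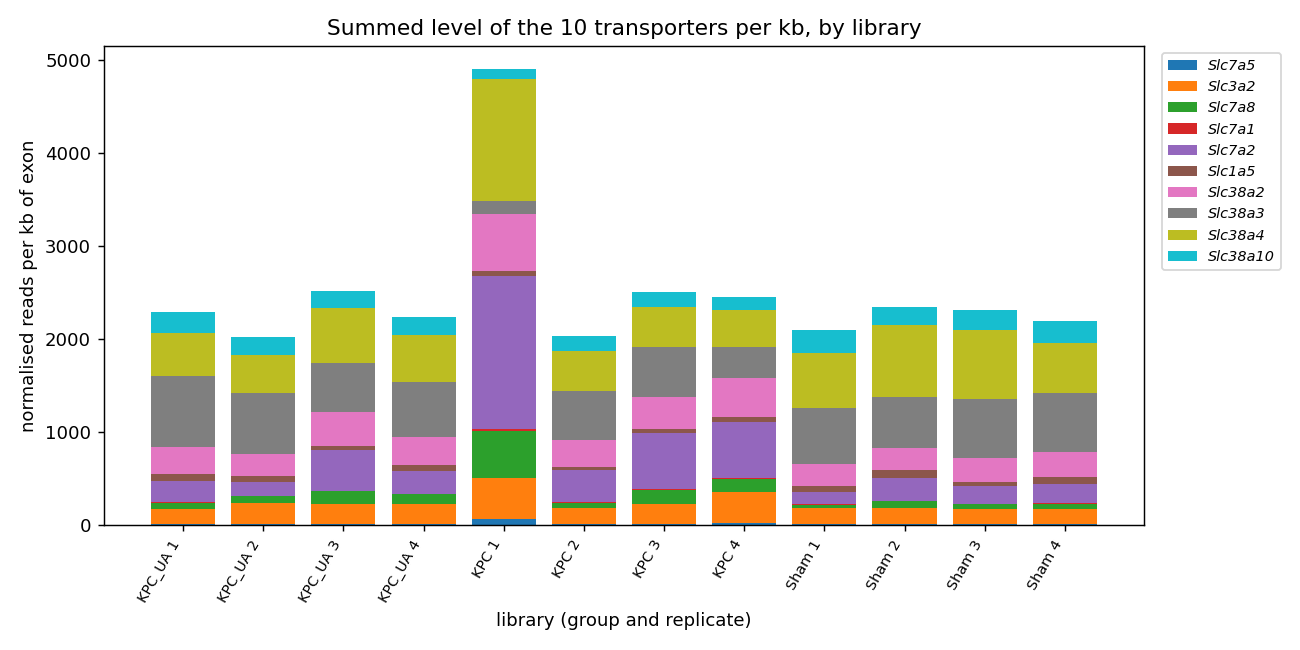
Normalised reads per kb of exon of the 10 transporters, stacked for each of the 12 libraries on a linear axis. KPC replicate 1 summed to 4905, against 2021 to 2514 in the other 11 libraries, and Slc7a2 made up 33.6% of its bar.

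The share of Slc7a2 in the summed level per kb was 9.99%, 7.02%, 17.5% and 10.8% in KPC_UA replicates 1 to 4, 33.6%, 16.9%, 24.0% and 24.7% in the KPC replicates and 6.23%, 10.5%, 8.21% and 9.12% in the Sham replicates. Only KPC_UA replicate 3 reached the range of the KPC libraries, and no Sham library did. The share of Slc38a3 was 33.3%, 32.3%, 21.3% and 26.4% in KPC_UA muscle, 2.88%, 25.9%, 21.5% and 13.8% in KPC muscle and 28.9%, 23.4%, 27.2% and 28.9% in Sham muscle. The 2 lowest of these shares belonged to KPC replicates 1 and 4.

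RefSeq promoter windows (GRCm38.p6) were at hand for 6 of the 10 genes, in 9 windows. Shown are the 250 bases upstream of the start site of Slc38a2 and Slc38a10, the members among these 6 whose KPC libraries did not overlap the Sham libraries, and of Slc7a8, the most abundant system L light chain. All 3 lie on the minus strand, at chr15:96699729-96699978, chr11:120151352-120151601 and chr14:54781887-54782136. Capitals mark the CACCC box CCACCC, a motif of Krüppel-like factors, and the GC box GGGCGG, each on either strand.
Slc38a2: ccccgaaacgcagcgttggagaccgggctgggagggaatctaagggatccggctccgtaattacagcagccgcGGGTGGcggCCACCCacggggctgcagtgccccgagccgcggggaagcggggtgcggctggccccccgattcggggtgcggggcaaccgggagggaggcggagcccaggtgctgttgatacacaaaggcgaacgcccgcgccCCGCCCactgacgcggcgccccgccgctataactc
Slc38a10: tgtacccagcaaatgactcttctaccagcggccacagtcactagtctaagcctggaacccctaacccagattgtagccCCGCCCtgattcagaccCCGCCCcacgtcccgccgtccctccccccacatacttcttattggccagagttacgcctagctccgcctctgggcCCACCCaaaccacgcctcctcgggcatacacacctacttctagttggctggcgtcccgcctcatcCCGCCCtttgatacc
Slc7a8: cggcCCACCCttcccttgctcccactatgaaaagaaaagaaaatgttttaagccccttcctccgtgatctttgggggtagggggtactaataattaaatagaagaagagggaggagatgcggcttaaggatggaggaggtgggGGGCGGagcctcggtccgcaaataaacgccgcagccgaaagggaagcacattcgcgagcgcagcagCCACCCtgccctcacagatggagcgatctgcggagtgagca
The CACCC box was present in 4 of the 9 member windows and in 28.1% of all 32851 windows of this length, and the GC box in 7 of the 9 and in 32.7% of all. In every window only the 250 bases before the start site were searched for these motifs. The ATF4 response element TGATGNAA (3.45% of all windows), the FOXO motif TGTTTAC (3.17%) and the palindromic glucocorticoid response element (0.387%), each on either strand, matched in 0 of the 9 windows. A match describes these letters only.

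The comparison of KPC with Sham muscle asks which carrier transcripts are altered where a tumour is present. The cationic carrier Slc7a2 and the system L chains had higher values in most KPC libraries, whereas Slc38a3 and Slc38a10 had lower ones. In limma on log2(value + 1), with Benjamini-Hochberg adjustment over all 13542 genes tested, 0 of the 10 transporters passed an adjusted p of 0.05, as did 1.18% of all genes. At an unadjusted p under 0.05 there were 6 of the 10, against 24.5% of all genes. KPC and Sham ranges were separate for 4 of the 10, 2 above and 2 below, against 19.1% of all genes (10% above, 9.11% below). An adjusted p under 0.05 was found for 4 of the 10 in the authors' deposited table (11.8% of its genes) and for 4 by DESeq2 (11.8%), 0 by edgeR (1.46%) and 5 by edgeR over all 12 libraries (10.9%) on the recovered reads. DESeq2 nearly repeated the deposited values, with a log2 fold change of 1.87 for Slc7a5 in both, so these are not separate results. In limma, Slc7a2 alone passed with quantile scaling (1.9% of all genes), without KPC replicate 1 (2.92%) and without KPC replicates 1 and 4 (4.43%), and Slc7a2, Slc7a8 and Slc38a2 passed without KPC replicate 2 (9.97%). For the 4 members with separate ranges (Slc7a2, Slc38a2, Slc38a3 and Slc38a10) a two-sided exact permutation test gave p = 0.0286, the smallest p that 4 libraries against 4 allow. Separate ranges fix that p in advance, so it only restates the separation. The members' median log2 fold change was 0.67, against 0.01 over all genes.

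**Figure D2:**
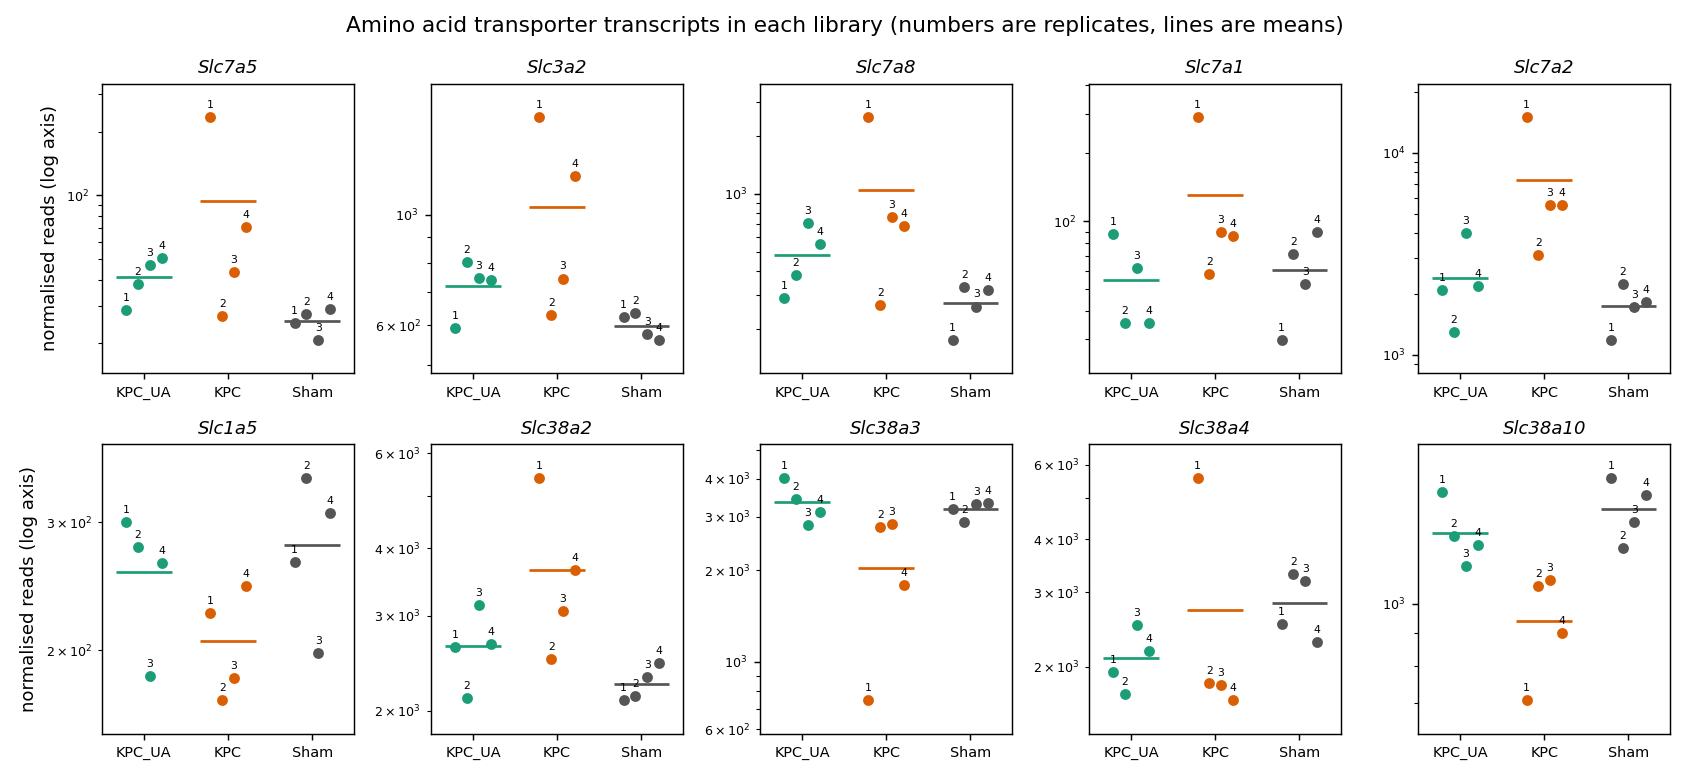
Normalised reads of each transporter in the 4 libraries of each group on a log axis, with replicate numbers beside the points and group means as lines. Slc7a2 in KPC libraries sits at 3136 to 15036, above all 4 Sham libraries, and Slc38a10 in KPC libraries at 706 to 1091, below all 4 Sham libraries.

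The widest difference was in Slc7a2 (ENSMUSG00000031596, chromosome 8, 40862396 to 40922308, GRCm38), which encodes CAT2, a carrier of arginine, lysine and ornithine. It had 2093, 1295, 4013 and 2201 normalised reads in KPC_UA replicates 1 to 4, 15036, 3136, 5502 and 5524 in the KPC replicates and 1191, 2239, 1732 and 1824 in the Sham replicates. All 4 KPC libraries lay above all 4 Sham libraries, KPC replicate 1 by far the highest. KPC against Sham gave a log2 fold change of 1.85 (SE 0.41, limma adjusted p = 0.0609), and the authors' deposited table has 2.06 with an adjusted p of 0.000190. Without KPC replicate 1 the limma value was 1.42 (adjusted p = 0.0271), and without KPC replicates 1 and 4 it was 1.29 (adjusted p = 0.0398). So Slc7a2 passed the threshold, higher in KPC, once the library with its highest value was left out. It also passed without KPC replicate 2, the lowest KPC library (limma adjusted p = 0.0145). Leaving out a Sham library or another KPC library gave limma adjusted p-values of up to 0.178. An unstranded count could take in reads of the opposite-strand transcript Gm26584, which covers 6.95% of the exonic length of Slc7a2.

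Slc7a1 (ENSMUSG00000041313, chromosome 5, 148327410 to 148399904) encodes CAT1, the widely expressed carrier of the same substrates. Its level was low, with 87.5, 35.5, 62.2 and 35.5 normalised reads in the KPC_UA libraries, 290, 58.3, 89.8 and 86.3 in the KPC libraries and 30.0, 72.0, 52.6 and 89.3 in the Sham libraries. Apart from KPC replicate 1, the groups covered the same range. KPC against Sham gave 0.91 on the log2 scale (SE 0.49, limma adjusted p = 0.270), and 0.43 without KPC replicate 1 (adjusted p = 0.524). Per kb, Slc7a2 exceeded Slc7a1 by 25.8 to 81.4 times over the 12 libraries.

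Slc3a2 (ENSMUSG00000010095, chromosome 19, 8706882 to 8723369), the shared heavy chain, had 593, 802, 748 and 739 normalised reads in KPC_UA, 1568, 630, 745 and 1196 in KPC and 624, 635, 578 and 562 in Sham libraries. KPC replicates 1, 3 and 4 exceeded every Sham library, and KPC replicate 2 lay inside the Sham range. The light chain Slc7a8 (ENSMUSG00000022180, chromosome 14, 54722209 to 54781946) had 291, 380, 704 and 553 in KPC_UA, 2496, 266, 758 and 685 in KPC and 177, 332, 262 and 318 in Sham libraries. The light chain Slc7a5 (ENSMUSG00000040010, chromosome 8, 121881150 to 121907694) had 28.9, 38.3, 46.9 and 50.3 in KPC_UA, 234, 26.9, 43.2 and 71.0 in KPC and 24.8, 27.4, 20.8 and 29.1 in Sham libraries. Both light chains repeated the order of the heavy chain within the KPC group in that replicate 1 was highest and replicate 2 lowest, and in both replicate 2 lay among the Sham libraries. KPC replicates 1 and 2 were also the ends of the KPC group on the first principal component over 13540 genes.

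For the system L chains, KPC against Sham gave log2 fold changes of 1.53 in Slc7a8 (SE 0.55, limma adjusted p = 0.146), 1.36 in Slc7a5 (SE 0.55, limma adjusted p = 0.176) and 0.69 in Slc3a2 (SE 0.27, limma adjusted p = 0.164). The authors' deposited table gives adjusted p-values of 0.00773 for Slc7a8, 0.0204 for Slc7a5 and 0.0648 for Slc3a2. Without KPC replicate 1 the limma values were 0.96, 0.76 and 0.46 in the same order (adjusted p = 0.165, 0.238 and 0.237), and without KPC replicates 1 and 4 they were 0.76, 0.42 and 0.19 (adjusted p = 0.360, 0.493 and 0.426). Without KPC replicate 2 Slc7a8 passed, with 2.04 (limma adjusted p = 0.0259), while Slc7a5 had 1.78 (adjusted p = 0.0520) and Slc3a2 0.90 (adjusted p = 0.0503). The size of these values therefore rested on which KPC library was included. The summed light chains per kb amounted to 0.393, 0.380, 0.724 and 0.593 of the heavy chain in KPC_UA libraries, 1.26, 0.338, 0.773 and 0.460 in KPC libraries and 0.237, 0.410, 0.354 and 0.448 in Sham libraries. The sum of Slc7a5 and Slc7a8 exceeded the heavy chain in KPC replicate 1 alone. Other partners of the heavy chain, such as Slc7a6, were not part of this sum.

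Among the SNAT genes, Slc38a2 (ENSMUSG00000022462, chromosome 15, 96687392 to 96699730) encodes SNAT2, the carrier of system A that cells raise when amino acids are short. It had 2622, 2113, 3145 and 2657 normalised reads in KPC_UA, 5403, 2496, 3063 and 3641 in KPC and 2090, 2130, 2309 and 2448 in Sham libraries. All KPC libraries lay above all Sham libraries, though KPC replicate 2 exceeded the highest of them by a small margin. The log2 fold change was 0.64 (SE 0.23, limma adjusted p = 0.144), 0.44 without KPC replicate 1 (adjusted p = 0.157) and 0.30 without KPC replicates 1 and 4 (adjusted p = 0.211). It passed only where KPC replicate 2 was left out, with 0.80 (limma adjusted p = 0.0479), among the fits that left out 1 library or KPC replicates 1 and 4. Slc38a2 lies 295 kb from Slc38a4 (ENSMUSG00000022464, chromosome 15, 96994820 to 97055956), which encodes SNAT4. Slc38a4 had 1944, 1726, 2514 and 2181 in KPC_UA, 5586, 1828, 1810 and 1666 in KPC and 2518, 3315, 3184 and 2286 in Sham libraries. KPC replicates 2 to 4 lay below every Sham library and KPC replicate 1 above all of them. Its log2 fold change was -0.25 (SE 0.36, limma adjusted p = 0.677) with all libraries, -0.66 without KPC replicate 1 (limma adjusted p = 0.0642) and -0.62 without KPC replicates 1 and 4 (limma adjusted p = 0.0527).

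Slc38a3 (ENSMUSG00000010064, chromosome 9, 107650634 to 107669530) encodes SNAT3, a glutamine carrier of system N that can run in either direction. It had 4036, 3448, 2829 and 3120 normalised reads in KPC_UA, 746, 2782, 2848 and 1789 in KPC and 3185, 2893, 3320 and 3341 in Sham libraries. The KPC libraries lay below the Sham libraries without overlap, KPC replicates 2 and 3 by little. The log2 fold change was -0.82 (SE 0.38, limma adjusted p = 0.211), -0.39 without KPC replicate 1 (adjusted p = 0.252) and -0.18 without KPC replicates 1 and 4 (adjusted p = 0.436). Slc38a10 (ENSMUSG00000061306, chromosome 11, 120103960 to 120151346) encodes a little-studied protein of the family. It had 1498, 1275, 1146 and 1236 in KPC_UA, 706, 1067, 1091 and 900 in KPC and 1576, 1223, 1344 and 1483 in Sham libraries. Its KPC libraries lay below all Sham and all KPC_UA libraries, and the log2 fold change against Sham was -0.60 (SE 0.19, limma adjusted p = 0.118), or -0.37 without KPC replicates 1 and 4 (adjusted p = 0.135). The authors' deposited table gives Slc38a10 an adjusted p of 0.0417. The opposite-strand transcript Gm11769 covers 5.72% of the exonic length of Slc38a10.

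Slc1a5 (ENSMUSG00000001918, chromosome 7, 16781340 to 16798274), the glutamine and small neutral amino acid exchanger ASCT2, varied least within KPC muscle. It had 300, 277, 184 and 263 normalised reads in KPC_UA, 225, 171, 183 and 245 in KPC and 265, 346, 198 and 309 in Sham libraries. The groups overlapped, and KPC against Sham gave -0.43 (SE 0.22, limma adjusted p = 0.255). It was the only one of the 10 genes for which KPC replicate 1 was neither the highest nor the lowest of the 12 libraries. The coefficient of variation in KPC muscle was 17.0%, close to the 19.0% of Slc38a10, and the other members ran from 34.5% (Slc38a2) to 101.6% (Slc7a5).

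**Figure D3:**
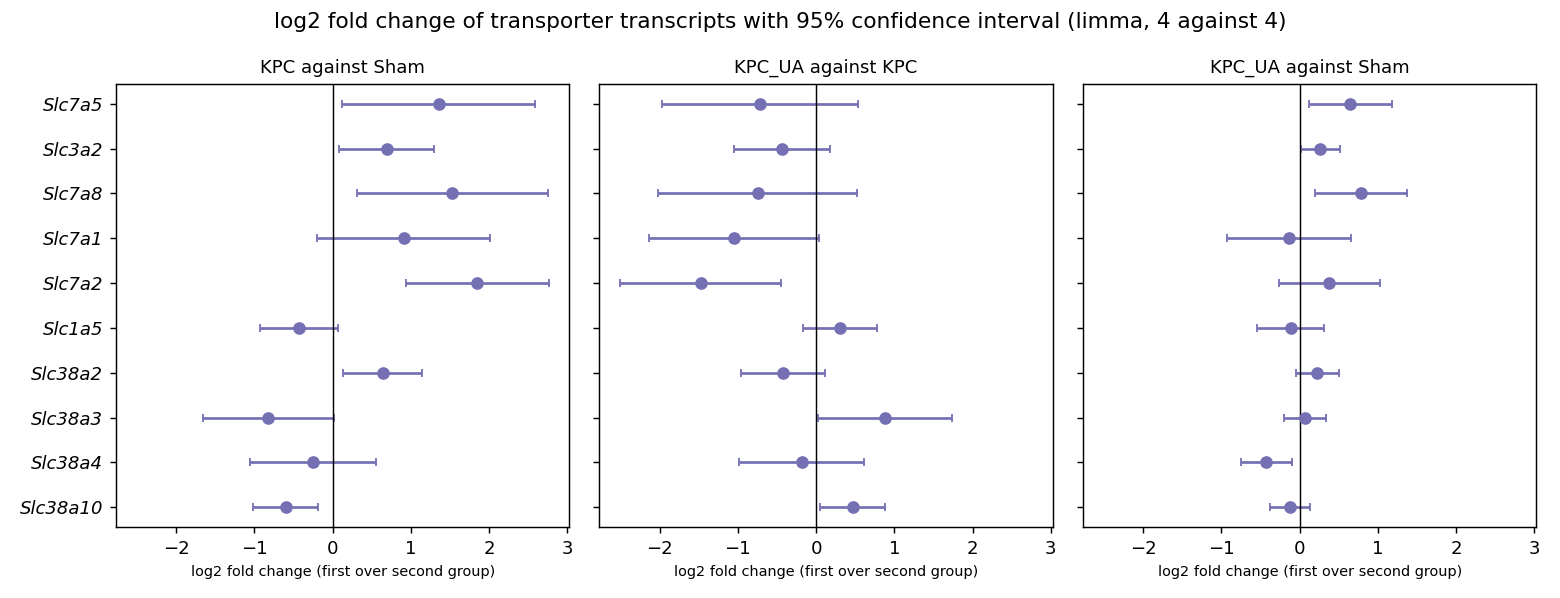
Log2 fold changes of the 10 transporters in each comparison with 95% confidence intervals from limma (4 libraries against 4), genes from top to bottom by role. In KPC against Sham, Slc7a2 lies at 1.85, and in KPC_UA against KPC at -1.47.

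The comparison of KPC_UA with KPC muscle asks how the diet with ursolic acid relates to these transcripts in tumour-bearing mice. Slc7a2 had the largest difference, with a log2 fold change of -1.47 (SE 0.46, limma adjusted p = 0.382), and 3 of the 4 KPC_UA libraries lay below every KPC library. In limma 0 of the 10 transporters passed, as did 0% of the 13522 genes tested. At an unadjusted p under 0.05 there were 3 (Slc7a2, Slc38a10 and Slc38a3), against 12.7% of all genes, and 0 of the 10 had an adjusted p under 0.05 in the authors' deposited table, against 0.764% of its genes. On the recovered reads, DESeq2 called 0 of the 10 (0.772% of its genes) and edgeR called 0 (0%). One member, Slc38a10, had KPC_UA libraries entirely above the KPC libraries, against 3.78% of all genes (7.92% without overlap in either direction), with a log2 fold change of 0.47 (SE 0.19, limma adjusted p = 0.382). Slc38a3 gave 0.89 (SE 0.39), with KPC_UA replicate 3, at 2829, inside the KPC range, and 0.46 without KPC replicate 1 (limma adjusted p = 0.547) and 0.24 without KPC replicates 1 and 4 (adjusted p = 0.573).

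The system L chains gave -0.75 in Slc7a8, -0.71 in Slc7a5 and -0.43 in Slc3a2 in KPC_UA against KPC, with limma adjusted p-values of 0.502, 0.513 and 0.438. Without KPC replicates 1 and 4 the values of all 3 turned to the other sign, 0.018, 0.23 and 0.060 (limma adjusted p = 0.992, 0.796 and 0.892). Slc7a1 gave -1.05 (limma adjusted p = 0.382), Slc38a2 -0.42 (0.406), Slc38a4 -0.18 (0.793) and Slc1a5 0.31 (0.469). Without KPC replicate 1, Slc7a1 gave -0.58 (limma adjusted p = 0.627), Slc38a2 -0.22 (0.734), Slc38a4 0.23 (0.672) and Slc1a5 0.35 (0.628), so that Slc38a4 changed sign. Slc7a2 gave -1.05 without KPC replicate 1 (limma adjusted p = 0.543) and -0.91 without KPC replicates 1 and 4 (adjusted p = 0.532), and Slc38a10 had 0.33 (adjusted p = 0.547) and 0.25 (adjusted p = 0.541). Both comparisons use the same KPC libraries, so that a high KPC value raises the KPC against Sham value and lowers the KPC_UA against KPC value.

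KPC_UA and Sham muscle, which share no KPC library, were compared to ask what differs from tumour-free muscle under the diet. These groups differ in both tumour and diet, and no Sham group received ursolic acid, so tumour and diet cannot be told apart here. In all, 3 of the 4 KPC_UA libraries lay above every Sham library for Slc7a8, Slc7a5, Slc3a2 and Slc38a2, and 3 of the 4 lay below every Sham library for Slc38a4. In limma 0 of the 10 passed, as did 0% of the 13567 genes tested, and the groups were without overlap for 0 of the 10, against 4.1% of all genes. At an unadjusted p under 0.05 there were 4, against 7.94% of all genes. Of the 10, 0 passed in the authors' deposited table (0.693% of its genes), by DESeq2 (0.693%) and by edgeR (0%). The 4 were Slc7a8 with a log2 fold change of 0.79 (SE 0.27, limma adjusted p = 0.453), Slc7a5 with 0.65 (SE 0.24, adjusted p = 0.497), Slc38a4 with -0.42 (SE 0.15, adjusted p = 0.461) and Slc3a2 with 0.26 (SE 0.11, adjusted p = 0.597). Slc7a2 gave 0.38 (95% interval -0.26 to 1.02) and Slc38a3 0.07 (-0.20 to 0.34). Slc38a2 gave 0.23, Slc1a5 -0.11, Slc38a10 -0.12 and Slc7a1 -0.13, each with a limma adjusted p of at least 0.727.

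**Figure D4:**
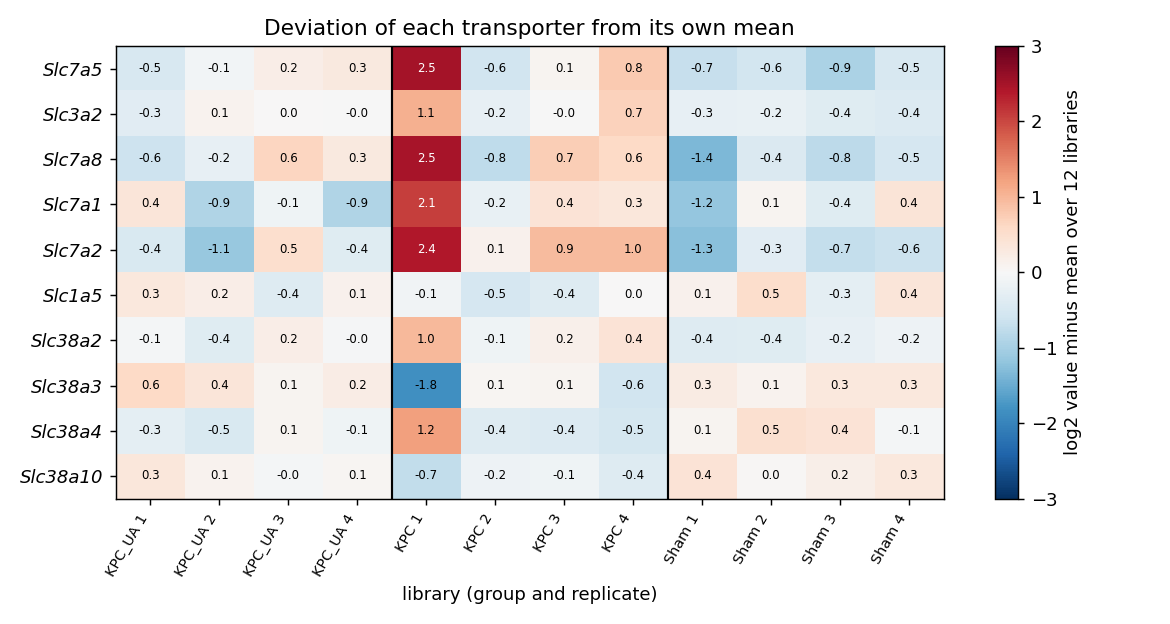
Log2 level of each transporter minus its own mean over the 12 libraries, by library, with colour from blue (low) to red (high). KPC replicate 1 reaches 2.49 in Slc7a5 and -1.84 in Slc38a3, and KPC replicate 2 stays between -0.76 and 0.14.

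Within KPC muscle the replicates lay far apart. KPC replicate 1 was the highest KPC library for 7 of the 10 and KPC replicate 2 the lowest for 7. Relative to the Sham mean, Slc7a5 stood at 9.17-fold in KPC replicate 1, 1.05-fold in replicate 2, 1.69-fold in replicate 3 and 2.78-fold in replicate 4, and Slc7a8 at 9.17-fold, 0.977-fold, 2.78-fold and 2.52-fold. Slc7a2 was the member furthest above the Sham mean in replicate 2, at 1.80-fold. The summed level of satellite cell markers (5 of 6 listed) was 696 to 758 normalised reads in KPC_UA, 716 to 3495 in KPC and 727 to 800 in Sham libraries. The highest sum was that of KPC replicate 1, where Sdc4 made up 3290 of it. Pax7 stood at 34.5 to 53.9 in KPC_UA, 7.90 to 65.1 in KPC and 42.4 to 80.0 in Sham libraries. Of the 5 satellite cell markers tested in KPC against Sham, 1 had a positive log2 fold change and 0 were called (median -0.42). Leukocyte markers (9 of 9 listed) summed to 1039 to 1312 in KPC_UA, 947 to 1770 in KPC and 798 to 1185 in Sham libraries, with the highest sum in KPC replicate 4. Tendon markers (6 of 7) summed to 570 to 2262 in KPC_UA, 386 to 1412 in KPC and 2179 to 3098 in Sham libraries. Of the 6, 2 fell in KPC against Sham (median log2 fold change -2.12), a comparison in which limma called 1.18% of all genes. Fibro-adipogenic progenitor markers (8 of 8) summed to 9428 to 11813 in KPC_UA, 7050 to 13614 in KPC and 10464 to 15211 in Sham libraries, with all 8 log2 fold changes negative in KPC against Sham, 1 of them called (median -0.92). Of 6 tested adipocyte markers 3 fell in that comparison (median -1.86). Their sums overlapped, at 2128 to 3860 in KPC_UA, 2182 to 3763 in KPC and 2726 to 4041 in Sham libraries. Fabp4 made up most of each sum, at 2056 to 3648 in KPC and 2176 to 3447 in Sham libraries. Adipoq, Plin1, Cfd, Cidec and Retn were each lower in every KPC library than in any Sham library, as were 9.11% of all genes tested. Erythroid markers (6 of 6) summed to 2486 to 15996 in KPC_UA, 2788 to 10633 in KPC and 749 to 3442 in Sham libraries, with 6 of 6 log2 fold changes positive and 0 called in KPC against Sham (median 1.84). Liver markers (4 of 5) summed to 984 in Sham replicate 1 and to at most 18.8 in every other library. The part of other cells in the transporter values was not tested.

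As a measure of likeness, the root mean square difference was taken between log2 levels over the 12 libraries, each gene centred on its own mean. This describes these libraries, in which KPC replicate 1 weighs heavily. Of the 45 pairs of members, Slc3a2 and Slc38a2 were nearest at 0.22, followed by Slc7a5 and Slc7a8 at 0.32 and by Slc1a5 and Slc38a10 at 0.35. The root mean square of the centred levels was 0.318 for Slc1a5 and 0.315 for Slc38a10. These genes were thus no nearer to each other than to a flat gene. Slc7a2 and Slc38a3 were farthest apart at 1.57. Slc38a2 and its neighbour Slc38a4 stood at 0.48. Among 10568 genes with a mean of at least 50 normalised reads, those most like Slc7a5 were Nfil3 at 0.24, Sbds at 0.26, Rusc2 at 0.26, Trafd1 at 0.27 and Zfp839 at 0.27. For Slc38a2 they were Golga2, Cds2, Synpo, Sart3 and Lgals8, at 0.09 to 0.11, and for Slc7a1 they were Uvssa, Spen, Ubr4, Dync1h1 and Dido1, at 0.24 to 0.32.

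The carriers work beside other transporters and beside the enzymes and sensors that handle the same amino acids, which were described as 7 lists. In KPC against Sham, limma called 1.18% of all genes, and the authors' deposited table called 11.8% of its own. An unadjusted p under 0.05 was found for 24.5% of all genes. Of 38 other amino acid transporters, 20 were tested in KPC against Sham; 1 rose and 0 fell, with a median log2 fold change of 0.03 against 0.01 over all genes. The one that rose was Slc43a1, which encodes LAT3, a carrier of leucine and other large neutral amino acids that needs no heavy chain. It had 301, 530, 1052 and 653 normalised reads in KPC_UA, 1947, 831, 1203 and 1436 in KPC and 481, 525, 510 and 478 in Sham libraries, and every KPC library lay above every Sham library. Its log2 fold change was 1.37 (SE 0.24, limma adjusted p = 0.0379), and 1.18 without KPC replicate 1 (adjusted p = 0.0211). Slc7a6, which encodes the heavy-chain partner y+LAT2, gave 0.99 (limma adjusted p = 0.0858), and the lysosomal carrier Slc15a4 gave 1.55 (adjusted p = 0.137). Of the 20, 3 had an unadjusted limma p under 0.05 in KPC against Sham, against 24.5% of all genes. The authors' deposited table calls 4 of the 20 there, all higher, against 11.8% of its genes. In KPC_UA against KPC, Slc43a1 gave -1.17 and Slc7a6 -0.92 (limma adjusted p = 0.382 for both), with 0 of the 20 called.

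**Figure D5:**
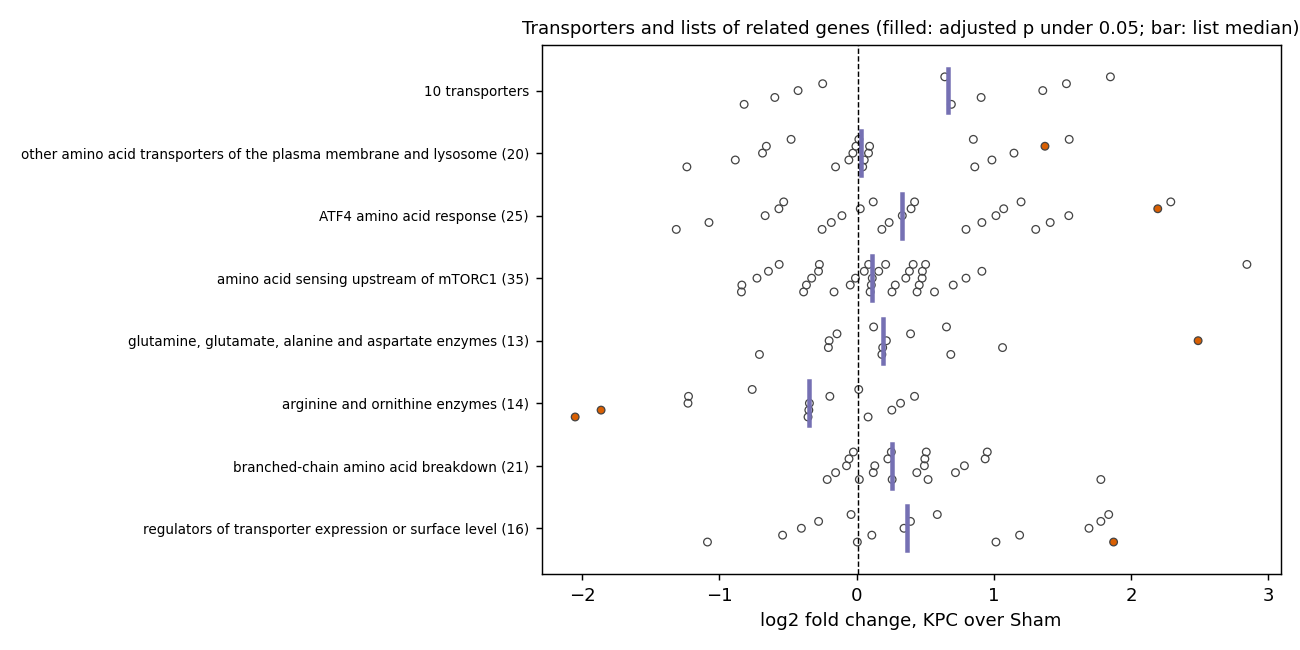
Log2 fold change in KPC over Sham of the 10 transporters and of the tested genes of 7 lists, with filled points for a limma adjusted p under 0.05 and a bar at each median. The transporter median is 0.67, and those of the lists run from -0.35 (arginine and ornithine enzymes) to 0.37 (regulators of transporters).

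Glutamine is made in muscle by glutamine synthetase. Of 13 tested enzymes of glutamine, glutamate, alanine and aspartate, 1 rose and 0 fell in KPC against Sham, with a median of 0.19. The gene that rose was Glul, which encodes glutamine synthetase. It had 4221, 6778, 17333 and 10625 normalised reads in KPC_UA, 62841, 8768, 15591 and 16055 in KPC and 2853, 3902, 2929 and 4229 in Sham libraries. Every KPC library exceeded every Sham library, and the log2 fold change was 2.49 (SE 0.49, limma adjusted p = 0.0461), 1.92 without KPC replicate 1 (adjusted p = 0.0205) and 1.77 without KPC replicates 1 and 4 (adjusted p = 0.00588). In KPC_UA against Sham it gave 1.32 (limma adjusted p = 0.349), with KPC_UA replicate 1 inside the Sham range. Of the 13 enzymes, 3 had an unadjusted limma p under 0.05 in KPC against Sham, against 24.5% of all genes. The authors' deposited table calls 3 of the 13 there, all higher, against 11.8% of its genes.

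Of 14 tested enzymes of arginine and ornithine, the substrates of the CAT carriers, 0 rose and 2 fell in KPC against Sham, with a median of -0.35. Gamt, the enzyme of creatine synthesis, had 179, 177, 93.8 and 108 normalised reads in KPC_UA, 23.7, 69.5, 61.0 and 38.9 in KPC and 189, 214, 229 and 134 in Sham libraries. Ddah1, which breaks down methylarginines that inhibit nitric oxide synthase, had 130, 123, 134 and 101 in KPC_UA, 34.2, 80.8, 86.5 and 36.7 in KPC and 204, 228, 190 and 184 in Sham libraries. For both genes the KPC values lay below those of both other groups. The log2 fold changes in KPC against Sham were -2.05 in Gamt (SE 0.35, limma adjusted p = 0.0371) and -1.86 in Ddah1 (SE 0.33, limma adjusted p = 0.0379). In KPC_UA against KPC they were 1.57 and 1.14 (limma adjusted p = 0.382 for both), and the authors' deposited table gives 0.0168 for Gamt and 0.111 for Ddah1. Of the 14 enzymes, 5 had an unadjusted limma p under 0.05 in KPC against Sham, against 24.5% of all genes. The authors' deposited table calls 4 of the 14 there, all lower, against 11.8% of its genes.

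Of 25 tested genes of the ATF4 response, the program that shortage of amino acids switches on and to which Slc7a5, Slc3a2 and Slc38a2 are known to belong, 1 rose and 0 fell in KPC against Sham, with a median of 0.33. Gadd45a, a stress-inducible gene, gave 2.19 (SE 0.43, limma adjusted p = 0.0454). The opposite-strand transcript E230016M11Rik covers 19.1% of the exonic length of Gadd45a. Of the 25, 12 had an unadjusted limma p under 0.05 in KPC against Sham, against 24.5% of all genes. The authors' deposited table calls 7 of the 25 there, all higher, against 11.8% of its genes. Atf4 itself had 3684, 4599, 5017 and 4730 normalised reads in KPC_UA, 13726, 4495, 5244 and 9829 in KPC and 4601, 3730, 3719 and 2963 in Sham libraries. Atf4 was thus highest in KPC replicates 1 and 4. Asns, asparagine synthetase and a textbook target of ATF4, stood at 19.2 to 30.8 in KPC_UA, 13.3 to 35.5 in KPC and 15.3 to 25.1 in Sham libraries, ranges that overlapped. Asns was low, and it does not stand for the list, in which genes went in both directions. Of the 25 log2 fold changes in KPC against Sham, 17 were positive. KPC libraries lay above all Sham libraries for 5 of the 25 genes and below all for 3, against 10% and 9.11% of all genes. The 5 were Gadd45a, Cebpb, Cth, Eif4ebp1 and Vldlr. The 3 were Ddit3 (231 to 330 in KPC, 358 to 580 in Sham), Psph (44.8 to 157 and 165 to 231) and Pycr1 (39.3 to 56.5 and 59.2 to 85.8).

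Of 16 tested regulators of transporter expression or surface level, 1 rose and 0 fell in KPC against Sham, with a median of 0.37. Arrdc3, an arrestin-like adaptor for removal of membrane proteins, had 907, 690, 1089 and 915 normalised reads in KPC_UA, 6586, 1779, 3011 and 3359 in KPC and 773, 855, 860 and 1146 in Sham libraries. The KPC libraries stood above both other groups. The log2 fold change of Arrdc3 was 1.87 against Sham (SE 0.34, limma adjusted p = 0.0379), and KPC_UA against KPC gave -1.89 (SE 0.34, limma adjusted p = 0.382; 0.000100 in the authors' deposited table). Klf15, a glucocorticoid-inducible factor of branched-chain amino acid breakdown, gave 1.78 in KPC against Sham (limma adjusted p = 0.0540), and passed without KPC replicate 1, at 1.39 (adjusted p = 0.0256). Of the 16 regulators, 8 had an unadjusted limma p under 0.05 in KPC against Sham, against 24.5% of all genes. The authors' deposited table calls 6 of the 16 there, all higher, against 11.8% of its genes. Of 21 tested genes of branched-chain amino acid breakdown and 35 of amino acid sensing upstream of mTORC1, 0 passed limma in KPC against Sham, with medians of 0.26 and 0.11. At an unadjusted p under 0.05 there were 10 of the 21 and 9 of the 35, against 24.5% of all genes, so the sensing list stood near that share. The authors' deposited table calls 7 of the 21 and 2 of the 35, all higher, against 11.8% of its genes, so the sensing list stood below that share there. Neither comparison with KPC_UA muscle had a list gene called by limma: it called 0 genes of any of the 7 lists, as it did over all genes. The 6 list genes called in KPC against Sham also passed without KPC replicate 1 (limma adjusted p of 0.0205 to 0.0341) and without KPC replicates 1 and 4 (0.00488 to 0.00819). They were all lost when any 1 of the Sham libraries, KPC replicate 3 or KPC replicate 4 was left out, since limma then called 0 genes.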

How the data were processed

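RNA was sequenced from 12 samples of tibialis anterior, 4 in each of the groups KPC_UA, KPC and Sham. The submitters' processing notes name bcl2fastq 2.17, Subread 1.5.2, featureCounts and the GRCm38 build. Not given in the sources used here are the aligner, annotation, strand setting and differential expression test. DESeq2 on the recovered reads gave nearly the deposited values, with 1595 genes called by both in KPC against Sham.

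For each pair of groups the authors deposited 1 table with the normalised signal of its 8 libraries, and, per the file headers, its own log2 fold changes with raw and adjusted p-values. No listed gene had fewer than 81 reads over its libraries. Every signal value equalled a whole read count over the library's size factor, which differed between tables, and whole reads came out for 100% of values (tolerance 0.01 reads). They were rescaled over all 12 libraries by median-of-ratios factors for levels set across groups.

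Each comparison was tested in its own table with limma 3.58.1 (R 4.3.3), as a two-sided test with trended variance and robust fitting on log2(value + 1) where a gene's mean was at least 10. Benjamini-Hochberg adjustment ran over all genes tested, with a threshold of 0.05. These fold changes understate changes of low genes. The scripts were tested on simulated data. Alternatives were pseudocounts of 0.5 and 5, no filter, a mean of at least 50, TMM and quantile scaling, plain limma with neither trend nor robust fitting, DESeq2 1.42.0 and edgeR 4.0.16 on recovered reads, edgeR with the 3 groups in 1 model, the authors' deposited p-values, a replicate block, each library left out, and KPC replicates 1 and 4 left out. Gene positions (counted from 1) and exonic lengths were taken from GENCODE M21 (GRCm38) and promoters from RefSeq (GRCm38.p6).

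The 10 genes, the lists and the tests were chosen with earlier results of these data known. Named are all 10 genes, the called members of each list or up to 3 with the smallest p, the 5 genes most like Slc7a5, Slc38a2 and Slc7a1, and Glul, Klf15, Atf4 and Asns. Marker lists for 12 cell types were summed, of which a selection by difference between groups or libraries is given. Of the lists left out, that of smooth muscle and pericytes had 1 of 6 tested markers called, lower in KPC against Sham (median -0.30).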

Additional observations from a re-analysis of the deposited data

Results flagged for a closer look

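In 30 sets of 4 libraries (10 transporters in 3 groups), 2 held a library far from the other 3 of its group by Dixon's test of the gap over the range, which chance gives in about 1 in 20 sets. Both were KPC replicate 1. Slc7a1 stood at 290 normalised reads there, against 58.3 to 89.8 in the other KPC libraries. Slc38a4 stood at 5586 there, against 1666 to 1828 in the other KPC libraries.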

How the results depend on the processing

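In KPC against Sham, limma called 160 genes and 0 transporters. The count over all genes was 87 with a mean of at least 50, 257 with quantile scaling, 1595 with DESeq2 and in the authors' deposited table, 1479 with edgeR over 12 libraries, 600 without KPC replicates 1 and 4, and 0 to 1350 with 1 library left out (0 without any 1 of the Sham libraries or without KPC replicate 3 or 4, 395 without KPC replicate 1 and 1350 without KPC replicate 2). The transporter count was 1 with quantile scaling and without KPC replicates 1 and 4 (Slc7a2), 4 with DESeq2 and in the authors' deposited table, 5 with edgeR over 12 libraries, and 0 to 3 with 1 library left out. The same replicate numbers did not pair the samples, with correlations of -0.26 to 0.13. With the replicate block limma called 66 genes in KPC against Sham and 0 transporters in any comparison. In KPC_UA against KPC, the count over all genes was 0 with limma, 100 with DESeq2, 99 in the authors' deposited table, 2 with edgeR over 12 libraries, 2 without KPC replicates 1 and 4 and 0 to 3 with 1 library left out. In KPC_UA against Sham it was 0 with limma, 94 with DESeq2 and in the authors' deposited table, and 0 to 4 with 1 library left out.

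Signs turned without KPC replicates 1 and 4 in KPC_UA against KPC for Slc7a5 (0.23), Slc3a2 (0.060), Slc7a8 (0.018) and Slc38a4 (0.18). With 1 library left out, Slc38a4 ran from -0.35 to 0.23 in KPC_UA against KPC. Set against Sham, KPC_UA gave ranges for Slc7a1 from -0.43 to 0.086, for Slc1a5 from -0.27 to 0.038 and for Slc38a3 from -0.021 to 0.15. The cause was not tested. Slc7a5 gave no value in KPC_UA against Sham with a mean of at least 50. Its 20.8 to 29.1 normalised reads in Sham libraries, and the 30.0 to 89.3 of Slc7a1, limit how small a change could be seen.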

Other observations

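Among genes that handle the same amino acids, Sesn1, a member of the sestrin family to which the leucine sensor of mTORC1 belongs, had 535, 598, 1376 and 711 normalised reads in KPC_UA, 14852, 942, 1807 and 3268 in KPC and 369, 437, 387 and 491 in Sham libraries. Every KPC library and every KPC_UA library exceeded every Sham library. KPC against Sham gave a log2 fold change of 2.84 (SE 0.67, limma adjusted p = 0.0702; 5.01e-06 in the authors' deposited table), and KPC_UA against Sham gave 0.84 (SE 0.24, limma adjusted p = 0.362; 0.04998 in the authors' deposited table). Without KPC replicate 1, Sesn1 gave 2.08 in KPC against Sham and passed (limma adjusted p = 0.0224). Klf15 had 893, 1007, 1714 and 1308 normalised reads in KPC_UA, 6210, 1368, 2222 and 3009 in KPC and 691, 880, 733 and 908 in Sham libraries. As with the system L chains, its KPC replicate 1 was highest and replicate 2 lowest of the KPC libraries. These libraries were also the ends of the KPC group on the first principal component over 13540 genes (124 and -8.56). The order is therefore not particular to these genes.

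Ddah1 was the listed enzyme with the smallest p in KPC_UA against Sham among the arginine and ornithine genes. Its KPC_UA libraries lay between the KPC and the Sham libraries without overlap with either, at 101 to 134 normalised reads in KPC_UA, 34.2 to 86.5 in KPC and 184 to 228 in Sham. KPC_UA against Sham gave -0.72 on the log2 scale (SE 0.14, limma adjusted p = 0.230), and the authors' deposited table gives an adjusted p of 0.00507. Sgk1, a kinase known to act on the surface level of several carriers, had KPC_UA libraries below all Sham libraries in that comparison, with -0.51 (SE 0.13, limma adjusted p = 0.307; 0.0381 in the authors' deposited table).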
